A study of Homo sapiens with 9 samples.

Results

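The genes described here are 10 members of methionine salvage and of the polyamine synthesis it serves: ADI1, MTAP, MRI1, APIP, ENOPH1, MAT2A, MAT2B, AMD1, SRM and ODC1. They were taken by symbol from a deposited table of 15354 rows, 1 per gene, and all 10 had a row and passed the filter on low values. The set was chosen by measured values, being drawn up around ADI1 for its much lower level with both siRNAs in these same libraries, so the values of ADI1 against control are a description and carry no test. Transcripts were sequenced from HCT116, a human colorectal cancer cell line in long use, in 9 libraries of 3 groups with 3 libraries each. All were reverse transfected, at 25 nM by the labels, while the study's methods state a higher final concentration for siRNAs. The siRNA was a commercial negative control (control), siRNA A or siRNA B, the latter pair designed against the long non-coding RNA SNHG5. The comparison asks which transcripts change when SNHG5 is targeted. All groups share the parental line, the transfection and the oligo-dT purification of RNA, and no untransfected cells were analysed here. The siRNAs act transiently. The study's methods speak of biological replicates, while the labels do not say whether libraries came from separate cultures, so p-values measure the spread between these libraries.

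Methionine is activated to S-adenosylmethionine (SAM), which donates methyl groups and, once decarboxylated, the aminopropyl groups of spermidine and spermine. Each aminopropyl transfer leaves methylthioadenosine, a by-product that inhibits spermine synthase and some methyltransferases and that the salvage pathway turns back into methionine. The pathway is known in colorectal and other cancers because ODC1 is a target of MYC and because MTAP is often deleted together with a neighbouring tumour suppressor, which leaves the PRMT5 methyltransferase partly inhibited.

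The targeted RNA went against the labels. SNHG5 lay at 35.6, 26.3 and 28.6 CPM (reads of a gene relative to the library total, brought to a common total) in the control libraries, but the libraries labelled siRNA A held 63.9, 50.0 and 61.5 CPM and those labelled siRNA B 47.8, 47.7 and 45.2 CPM. It was higher in every library labelled as a knock-down than in every control library, with log2 fold changes of 1.29 ± 0.13 (SE) and 0.83 ± 0.13 (limma, BH-adjusted p = 1.86e-05 and 0.00059). The table holds 1 row for SNHG5, a host of small nucleolar RNAs, and which of its transcripts or introns that row covers is not given in the sources used here. In the annotation used here SNHG5 shares exonic bases on its own strand with ENSG00000271793 and PKMP3, whose part in the row was not tested. Directions below are therefore those between libraries as labelled. Library totals ran from 15566530 to 23277549 reads. TMM, a scaling that centres the bulk of genes, gave mean factors of 1.14 (control), 0.886 (siRNA A) and 0.988 (siRNA B libraries). On library totals alone the median of all genes tested moved from -0.02 to -0.34 in the siRNA A comparison and from 0.0043 to -0.18 in that of siRNA B. The share of called genes that were higher went from 46.4% to 16.1% with siRNA A, from 46.0% to 18.8% with siRNA B and from 47.6% to 27.4% between the siRNAs. All 6 epithelial markers examined were detected, with EPCAM between 94.6 and 214 CPM, and their summed level was 2119 to 2224 CPM in control, 2826 to 3482 CPM with siRNA A and 2401 to 2470 CPM with siRNA B. Of 11 markers of fibroblasts, leukocytes and endothelium 4 had a row, LUM was listed at 0 in every library, COL3A1 did not pass 0.143 CPM and CD68 did not pass 1.18 CPM. Their summed level, carried by COL1A1, was 19.1 to 20.6 CPM in control, 10.6 to 13.5 CPM with siRNA A and 9.58 to 10.5 CPM with siRNA B. The part of these marker levels in the results below was not tested. In RNA from whole cultures, fewer cells of a kind and less RNA per cell cannot be told apart.

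ADI1 stood far below control with either siRNA while the other 9 genes moved by less than 1 on the log2 scale. Within the salvage arm APIP fell with both siRNAs, MRI1 fell with siRNA A, and MTAP and ENOPH1 rose with siRNA A after TMM scaling. MAT2A, the SAM synthetase of dividing cells, fell with siRNA A. The polyamine enzymes took different courses with the siRNAs: SRM, AMD1 and ODC1 rose with siRNA A, whereas with siRNA B AMD1 fell and ODC1 rose. On library totals alone the rises of MTAP, ENOPH1, AMD1 and ODC1 were not called, whereas the falls and the rise of SRM were.

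Of the 9 members other than ADI1, 8 passed an adjusted p of 0.05 with siRNA A, 5 higher and 3 lower (MRI1, APIP and MAT2A), beside 51.4% of the 13893 genes tested (23.9% higher and 27.6% lower). On library totals alone 4 of the 9 passed, beside 56.1% of all genes. With siRNA B 3 of the 9 passed, ODC1 higher and APIP and AMD1 lower, beside 34.0% of all genes (15.6% higher and 18.3% lower). Library totals alone also gave 3, namely APIP, MAT2A and AMD1, all lower, beside 36.6% of all genes. Between the siRNAs ENOPH1, AMD1 and SRM of the 10 members passed, each higher with siRNA A, beside 37.1% of all genes (17.6% higher and 19.5% lower with siRNA A). Under library totals alone AMD1 and SRM passed as higher with siRNA A and MAT2A as lower, beside 37.2% of all genes. The median log2 fold change of the 9 members was 0.28 with siRNA A and 0.07 with siRNA B, and both signs turned on library totals alone, to -0.09 and -0.14. Both comparisons share the control libraries, so their values are not independent of each other.

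**Figure D1:**
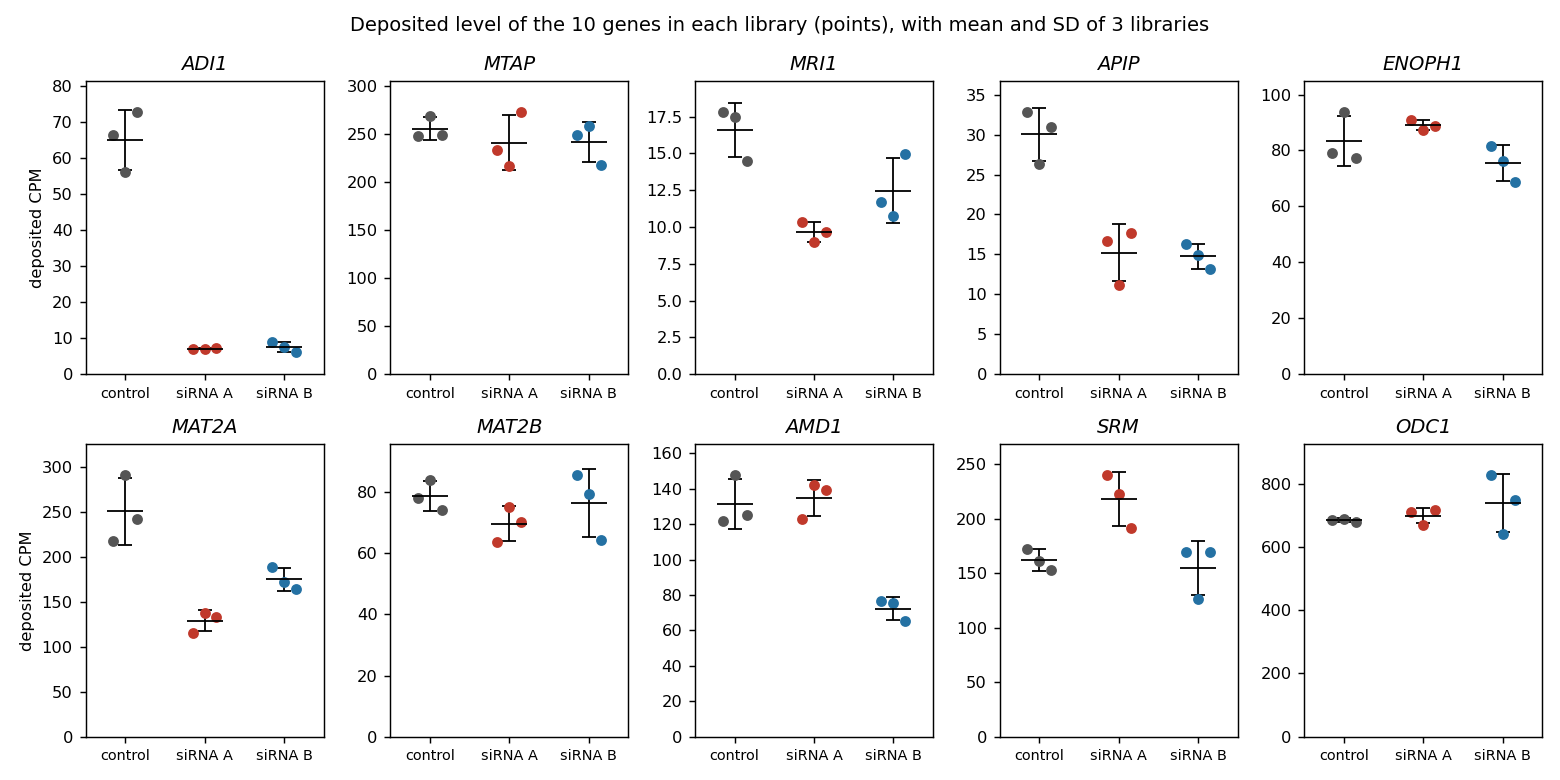
Deposited CPM (vertical axis, linear from 0) of the 10 genes in each library (points), by siRNA group, with the mean (line) and SD of 3 libraries (bars). ADI1 lies between 56.1 and 72.6 CPM in control and between 6.10 and 8.94 CPM in the libraries labelled as knock-downs, and AMD1 is the gene whose siRNA B libraries alone sit below control.

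ADI1 encodes acireductone dioxygenase, the enzyme of the penultimate salvage step, which forms the keto acid that a transaminase then converts to methionine. The gene (ENSG00000182551.7) has 4 exons on the minus strand of chromosome 2 from 3501137 to 3523302 (GRCh37). Its control libraries held 66.3, 56.1 and 72.6 CPM. Libraries labelled siRNA A held 6.94, 7.07 and 7.15 CPM, and those labelled siRNA B held 8.94, 7.53 and 6.10 CPM. The lowest control library was far above the highest of the other 6, and the siRNA groups overlapped each other. At least 110 reads stood behind every one of these values. On the TMM scale the means were 57.0 ± 9.42 CPM in control, 7.97 ± 0.302 CPM with siRNA A and 7.60 ± 1.24 CPM with siRNA B (SD, n = 3), so that the control mean was 7.16 times that of siRNA A and 7.51 times that of siRNA B. The log2 fold changes were -2.68 ± 0.15 and -2.75 ± 0.15 (SE), and -3.03 and -2.96 on library totals alone. Between the siRNAs the difference of 0.07 was within the replicate spread (limma, BH-adjusted p = 0.739, 95% interval -0.25 to 0.39), and its sign turned to -0.07 on library totals alone. The choice of ADI1 for a low level with both siRNAs favours a small difference, so this test does not show that they act alike. Leaving out siRNA B library 3 gave -0.05.

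The promoters of ADI1, ENOPH1, SRM and AMD1 are shown because ADI1 is the gene with the greatest difference from control and the other 3 differed between the siRNAs. Each run is the RefSeq sequence (GRCh38.p14) of the 250 bases before the start site, 5′ to 3′ on the strand of the gene, with CACGTG, the palindromic E-box that MYC and related factors can bind, in capitals. ADI1 and SRM lie on the minus strand, at chr2:3519532-3519781 and chr1:11060019-11060268, and ENOPH1 and AMD1 lie on the plus strand, at chr4:82430340-82430589 and chr6:110874535-110874784 (the first of the AMD1 windows).
ADI1: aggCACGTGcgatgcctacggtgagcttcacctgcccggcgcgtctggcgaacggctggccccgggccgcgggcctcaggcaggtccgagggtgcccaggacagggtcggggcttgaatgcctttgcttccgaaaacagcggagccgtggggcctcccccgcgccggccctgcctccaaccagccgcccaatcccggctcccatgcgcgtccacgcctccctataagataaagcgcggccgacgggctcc
ENOPH1: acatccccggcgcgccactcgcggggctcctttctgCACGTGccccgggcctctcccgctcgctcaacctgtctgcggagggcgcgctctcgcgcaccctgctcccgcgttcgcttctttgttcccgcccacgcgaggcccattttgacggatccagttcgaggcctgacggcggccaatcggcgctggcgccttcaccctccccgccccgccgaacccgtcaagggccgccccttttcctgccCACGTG
SRM: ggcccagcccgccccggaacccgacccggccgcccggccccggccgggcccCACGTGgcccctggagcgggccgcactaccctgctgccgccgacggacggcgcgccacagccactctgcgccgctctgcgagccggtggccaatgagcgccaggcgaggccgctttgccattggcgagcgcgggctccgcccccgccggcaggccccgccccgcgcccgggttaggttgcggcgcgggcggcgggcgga
AMD1: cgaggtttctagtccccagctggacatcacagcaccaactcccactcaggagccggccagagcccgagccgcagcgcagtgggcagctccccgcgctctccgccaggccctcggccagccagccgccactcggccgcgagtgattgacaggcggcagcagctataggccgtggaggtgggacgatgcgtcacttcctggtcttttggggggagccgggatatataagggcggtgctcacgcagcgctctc
The match in ADI1 begins 247 bases before the start, those in ENOPH1 begin 214 and 6 bases before it, and the match in SRM begins 199 bases before it. All 10 genes had a window, and 5 of them held CACGTG in at least 1 window, with MRI1 (236 bases before the start) and the second of the ODC1 windows (29 bases before) in addition to the 3 shown with capitals. Of all 27305 symbols with a RefSeq window, a share of 7.73% held the motif. By window, 5 of the 14 of these genes held it, beside 6.34% of all 35116. These shares were not matched for expression or kind of gene, and no enrichment was tested. The 5 genes with a match comprised ADI1 and MRI1, which were lower with siRNA A, and ENOPH1, SRM and ODC1, which rose with it on the TMM scale. MTAP, APIP, MAT2A, MAT2B and AMD1 held no match in these windows. A match is a run of letters and not a measured binding site.

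MTAP cleaves methylthioadenosine and so opens the salvage pathway. The gene (ENSG00000099810.13) lies on the plus strand of chromosome 9 from 21802635 to 21937650 and overlaps several other annotated genes, whose reads could not be told apart from its own where exons are shared. MTAP was present in every library: 248, 269 and 249 CPM in control, 234, 216 and 272 CPM with siRNA A and 249, 258 and 218 CPM with siRNA B. These ranges overlapped in both comparisons. On the TMM scale MTAP rose by 0.28 ± 0.10 (SE) with siRNA A (limma, BH-adjusted p = 0.0426), while library totals alone turned the value to -0.09 (adjusted p = 0.531). The call was lost when any control library, siRNA A library 1 or 3, or siRNA B library 1 was left out, with adjusted p from 0.0668 to 0.148. With siRNA B the value was 0.13 ± 0.10 (adjusted p = 0.369, 95% interval -0.10 to 0.36), and -0.08 on library totals alone.

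MRI1, the isomerase of the next step, had the lowest level per transcript length in control. It (ENSG00000037757.9) lies on the plus strand of chromosome 19 from 13875336 to 13885096 and shares exonic bases with a long non-coding RNA on the opposite strand. Control libraries held 17.8, 17.5 and 14.5 CPM, siRNA A libraries 10.4, 8.99 and 9.65 CPM and siRNA B libraries 11.7, 10.7 and 15.0 CPM. Every library labelled siRNA A was below every control library, and those labelled siRNA B overlapped with control. MRI1 fell by 0.38 on the log2 scale with siRNA A (SE 0.14, limma, BH-adjusted p = 0.0358). That call was lost without control library 1 or 2 or without any one of the siRNA A libraries (adjusted p from 0.0507 to 0.111), and it was stronger on library totals alone (-0.72, adjusted p = 0.00111). With siRNA B the value was -0.19 ± 0.14 (adjusted p = 0.298).

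APIP, the dehydratase that follows MRI1 and that was also described as an inhibitor of apoptosis, was the salvage gene with a tested fall in both comparisons. It (ENSG00000149089.7) lies on the minus strand of chromosome 11 from 34874641 to 34937926, and shares exonic bases with PDHX on the other strand. The values were 32.8, 26.3 and 31.0 CPM in control, 16.7, 11.1 and 17.7 CPM with siRNA A and 16.3, 14.9 and 13.1 CPM with siRNA B. No library of either siRNA reached the lowest control library. On the log2 scale APIP fell by 0.61 (siRNA A) and by 0.77 (siRNA B, SE 0.16 for both, limma, BH-adjusted p = 0.00756 and 0.00327). Both calls held under every alternative run, with log2 fold changes from -0.96 to -0.44 and from -0.98 to -0.70. The siRNAs did not differ from each other by the test (0.16, adjusted p = 0.443, 95% interval -0.18 to 0.51).

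ENOPH1 carries out the enolase and phosphatase steps that yield the substrate of ADI1. It (ENSG00000145293.10) lies on the plus strand of chromosome 4 from 83351743 to 83382330. Deposited values were 79.0, 93.6 and 77.5 CPM in control, 90.9, 87.4 and 88.8 CPM with siRNA A and 81.7, 76.1 and 68.7 CPM with siRNA B. The siRNA A libraries lay within the control range on this scale and above all siRNA B libraries. After TMM scaling ENOPH1 rose by 0.46 ± 0.10 (SE) with siRNA A (limma, BH-adjusted p = 0.00186), against 0.10 on library totals alone (adjusted p = 0.479). With siRNA B it was at 0.07 ± 0.10 (adjusted p = 0.609), or -0.14 on library totals alone. The difference between the siRNAs, 0.39 ± 0.10, passed the test (adjusted p = 0.00771) and did not pass on library totals alone (0.24, adjusted p = 0.114).

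MAT2A is the catalytic subunit of the SAM synthetase found outside the adult liver, and MAT2B is its regulatory subunit. MAT2A (ENSG00000168906.8) lies on the plus strand of chromosome 2 from 85766291 to 85772404 and shares exonic bases with GGCX on the other strand. Its control libraries held 218, 291 and 243 CPM, those labelled siRNA A 116, 138 and 133 CPM and those labelled siRNA B 189, 172 and 164 CPM. The 3 groups did not overlap, with control highest and siRNA A lowest. MAT2A fell by 0.58 with siRNA A (SE 0.12, limma, BH-adjusted p = 0.00151), from 219 ± 26.1 to 146 ± 16.4 CPM on the TMM scale (SD, n = 3), and the call held under every alternative. With siRNA B the value of -0.30 ± 0.12 missed the threshold (adjusted p = 0.0685, 95% interval -0.55 to -0.04). It passed on library totals alone (-0.51, adjusted p = 0.00673) as well as without control library 1 (-0.39, adjusted p = 0.0329). The siRNAs differed by -0.28 (adjusted p = 0.0741) and passed on library totals alone (-0.44, adjusted p = 0.015) and without siRNA A library 2 (-0.36, adjusted p = 0.0437).

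MAT2B (ENSG00000038274.11) lies on the plus strand of chromosome 5 from 162930120 to 162946564. It was measured at 78.0, 83.8 and 74.2 CPM in control, at 63.8, 75.1 and 70.0 CPM with siRNA A and at 85.5, 79.4 and 64.1 CPM with siRNA B, and all groups overlapped. It was the member not called in any comparison, with 0.19 ± 0.12 (SE) for siRNA A (limma, BH-adjusted p = 0.201) and 0.16 ± 0.12 for siRNA B (adjusted p = 0.329), values that turned to -0.18 and -0.05 on library totals alone. Within a library the log2 ratio of MAT2A to MAT2B, which hardly depends on the scaling, was 1.47 to 1.78 in control, 0.85 to 0.92 with siRNA A and 1.11 to 1.34 with siRNA B. Each difference, -0.77, -0.46 and -0.32 between the siRNAs, separated the groups fully and gave the smallest p that 3 against 3 libraries allow (two-sided exact permutation test, p = 0.1, adjusted p = 0.167 over 10 such tests).

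ODC1 encodes ornithine decarboxylase, which makes putrescine in the first committed step of polyamine synthesis. It (ENSG00000115758.8) lies on the minus strand of chromosome 2 from 10580094 to 10588453 and hosts the small nucleolar RNA SNORA80B. Its libraries held 686, 689 and 677 CPM in control, 710, 671 and 716 CPM with siRNA A and 827, 642 and 748 CPM with siRNA B, and the groups overlapped. On the TMM scale ODC1 rose with siRNA A, by 0.40 ± 0.10 (SE, limma, BH-adjusted p = 0.00593), and with siRNA B, by 0.32 ± 0.10 (BH-adjusted p = 0.0297), while library totals alone gave 0.03 and 0.10 (adjusted p = 0.838 and 0.512). Its call with siRNA B was also lost without any one control library or without siRNA B library 1 or 3 (adjusted p from 0.0629 to 0.125). Between the siRNAs the difference was 0.08 (adjusted p = 0.544, 95% interval -0.14 to 0.30), or -0.07 on library totals alone.

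AMD1, the decarboxylase that commits SAM to polyamines, differed most between the siRNAs among the 10 genes. It (ENSG00000123505.9) lies on the plus strand of chromosome 6 from 111195973 to 111220082. Control libraries held 122, 148 and 125 CPM and those labelled siRNA A 123, 142 and 139 CPM, whereas those labelled siRNA B held 76.5, 75.4 and 65.1 CPM. All siRNA B libraries were below all others, and siRNA A overlapped with control before scaling. AMD1 fell by 0.64 with siRNA B (SE 0.11, limma, BH-adjusted p = 0.00102) and did so under every alternative, from -0.85 to -0.57. With siRNA A it rose by 0.40 ± 0.11 after TMM scaling (adjusted p = 0.00867) and stood at 0.04 on library totals alone (adjusted p = 0.797). The siRNA A mean was 2.08 times that of siRNA B, a log2 difference of 1.04 ± 0.11 (adjusted p = 5.49e-05) that ranged from 0.89 to 1.11 over the alternatives.

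SRM is spermidine synthase, which joins the aminopropyl group to putrescine and releases methylthioadenosine. It (ENSG00000116649.5) lies on the minus strand of chromosome 1 from 11114641 to 11120077. The values were 173, 161 and 153 CPM in control, 240, 223 and 191 CPM with siRNA A and 169, 126 and 169 CPM with siRNA B. Each siRNA A library exceeded every other library, and siRNA B overlapped with control. Of the 5 members called higher with siRNA A, SRM alone was separated from control on the deposited scale. SRM rose by 0.79 ± 0.13 (SE) with siRNA A (limma, BH-adjusted p = 0.00039), or 0.42 on library totals alone (adjusted p = 0.017). With siRNA B it was at 0.13 ± 0.13 (adjusted p = 0.45, 95% interval -0.14 to 0.41), or -0.08 on library totals alone. SRM differed between the siRNAs by 0.65 ± 0.13 (adjusted p = 0.0023) and passed under every alternative, from 0.50 to 0.77.

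**Figure D2:**
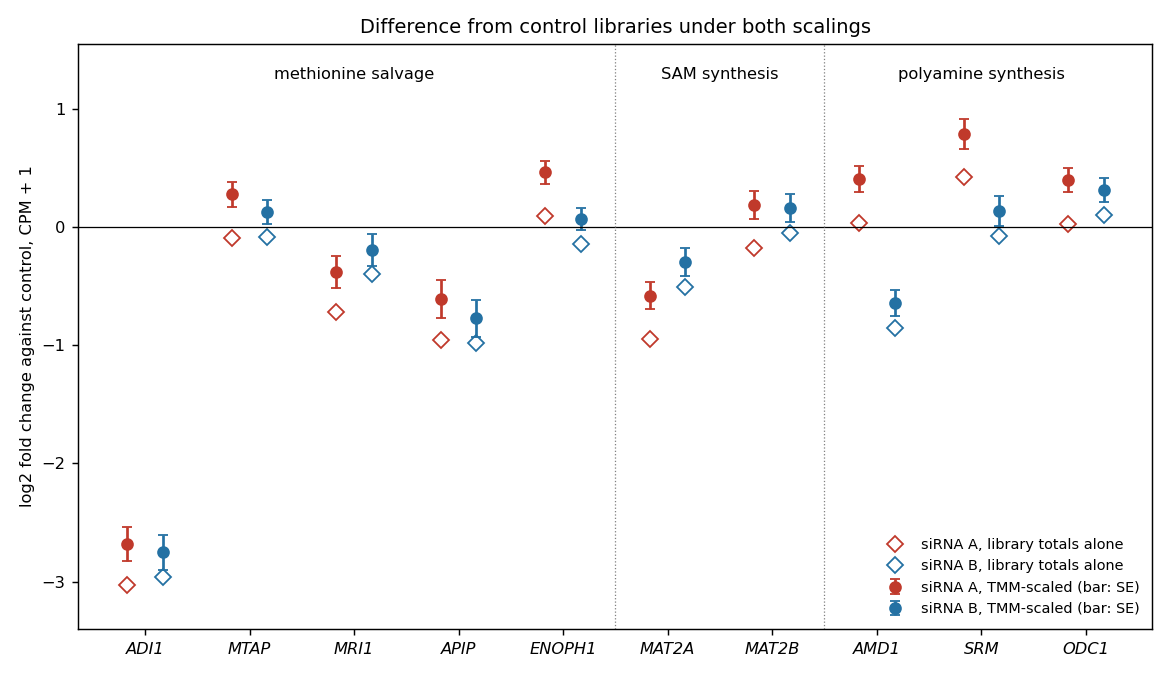
Log2 fold change against control (vertical axis) of the 10 genes with siRNA A (red) and siRNA B (blue), after TMM scaling (filled, bars are SE of the fit over 9 libraries) and on library totals alone (open diamonds). ADI1 lies near -2.7 on the TMM scale, at -2.68 and -2.75, and the open diamonds of MTAP, ENOPH1 and ODC1 lie close to 0 where the filled siRNA A points lie at 0.28, 0.46 and 0.40.

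Ratios of genes within a library set the members against each other with no scaling between libraries. ADI1 over the mean of the other 4 salvage enzymes was between -0.07 and 0.40 in control, between -2.53 and -2.28 with siRNA A and between -2.60 and -2.22 with siRNA B on the log2 scale. ADI1 relative to the rest of its pathway differed from control by -2.61 and -2.56 in log2 units, with no test since ADI1 was chosen for it. The siRNAs differed by -0.05 in this ratio (exact permutation test, p = 0.9, adjusted p = 0.9), a small difference that the choice of ADI1 favours. OAZ1 encodes the antizyme that binds ODC1 and sends it to the proteasome. ODC1 over OAZ1 was 0.51 to 0.80 in control, 0.12 to 0.43 with siRNA A and 0.51 to 0.77 with siRNA B, a difference of -0.44 with siRNA A (exact permutation test, p = 0.1, the smallest possible, adjusted p = 0.167) and of -0.04 with siRNA B (p = 0.7, adjusted p = 0.778). AMD1 over SRM was -0.50 to -0.12 in control, -0.96 to -0.45 with siRNA A and -1.37 to -0.74 with siRNA B. The difference from control was -0.38 with siRNA A, where the groups overlapped (exact permutation test, p = 0.2, adjusted p = 0.25), and -0.77 with siRNA B, where they did not (p = 0.1, adjusted p = 0.167).

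**Figure D3:**
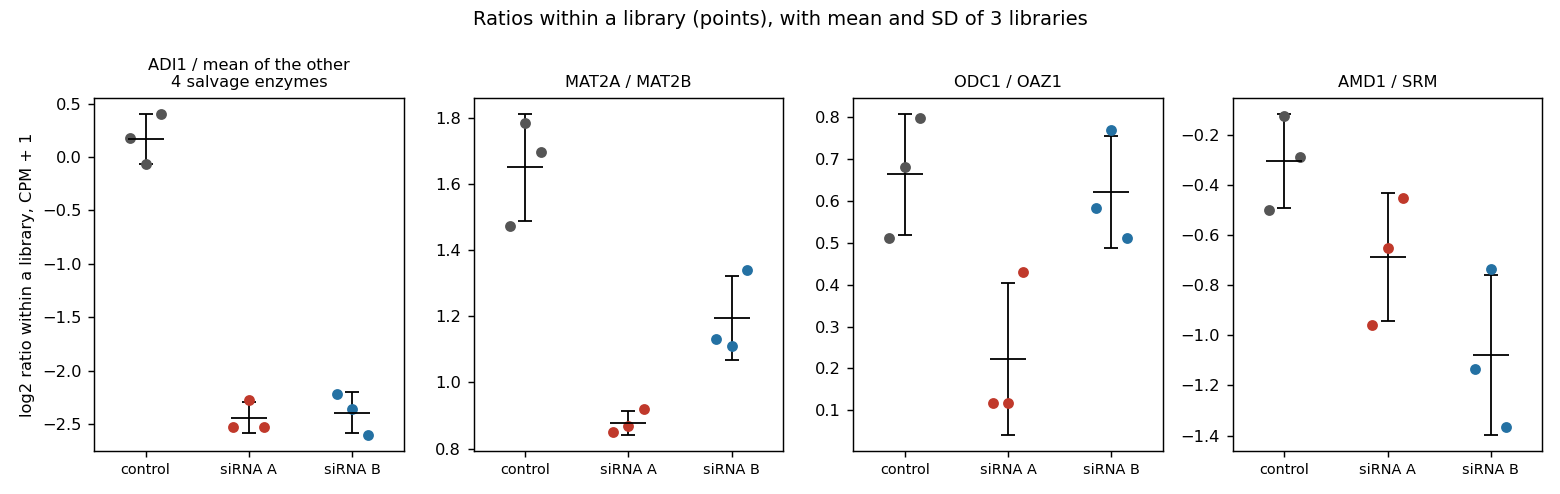
Log2 ratio of CPM + 1 within each library (vertical axes, points) for 4 ratios by siRNA group, with the mean (line) and SD of 3 libraries (bars). MAT2A over MAT2B steps down from 1.47 to 1.78 in control to 1.11 to 1.34 with siRNA B and 0.85 to 0.92 with siRNA A, and ODC1 over OAZ1 is lower in the siRNA A libraries alone.

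Compared per kilobase of the canonical transcript, the level of ODC1 was highest in control, at 242 ± 7.38 TMM-scaled CPM per kilobase (SD, n = 3). SRM followed at 112 ± 7.0 and MAT2A at 77.6 ± 9.26, and the libraries of these 3 genes did not overlap with the gene next in order. MTAP, ENOPH1, AMD1 and MAT2B formed a middle tier, with ENOPH1 at 34.9, AMD1 at 33.5 and MAT2B at 33.3, and neighbours within it overlapped. ADI1 at 26.2 ± 4.32 and APIP at 21.1 ± 2.98 overlapped each other, and MRI1 was lowest at 4.55 ± 0.402. With siRNA A the level of ADI1 was 3.65 ± 0.139, which overlapped with that of MRI1 at 3.43 ± 0.186. With siRNA B ADI1 had the lowest mean of the 10, at 3.48 ± 0.568, and again overlapped with MRI1, at 3.97 ± 0.717. AMD1 left the middle tier with siRNA B, at 21.4 ± 1.92, without overlap with ENOPH1 above it or APIP below it. Oligo-dT purified libraries need not cover a transcript evenly, so these levels are approximate between genes.

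Around the 10 genes stand lists of further pathway genes, 52 in all, of which 46 had a row and 41 were tested. With siRNA A 12 were higher and 8 lower, and with siRNA B 4 were higher and 6 lower. The 20 called with siRNA A stand beside 51.4% of all genes tested and the 10 called with siRNA B beside 34.0%. Neither count exceeded the background share on the TMM scale without a block. Library totals alone gave 8 higher and 18 lower with siRNA A, beside 56.1% of all genes called. They gave 2 higher and 11 lower with siRNA B, beside 36.6%. On that scale the siRNA A count was above the background share, and the excess was not tested. The median log2 fold change over the 41 was 0.12 with siRNA A and -0.05 with siRNA B, or -0.24 for each on library totals alone. A fit of all 9 libraries with the replicate number as a block called 27 of the 41 with siRNA A. That count was also above the share of all genes, 8093 of 13893, and the excess was not tested. Among the 41, the 7 calls added by the block were KYAT3, AHCYL2, OAZ3, ATP13A2, WDR77, METTL16 and YTHDC1 (limma, BH-adjusted p from 0.012 to 0.0468).

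The last salvage step is a transamination that several enzymes can carry out, and 5 of 8 listed were tested. Of the 5, 3 passed with siRNA A, 1 higher and 2 lower, beside 51.4% of all genes tested. With siRNA A the cytosolic aspartate transaminase GOT1 and the glutamine transaminase KYAT1 fell, and the mitochondrial GOT2 rose after TMM scaling (0.36, adjusted p = 0.00357) and stood at -0.01 on library totals alone. KYAT1 went from 5.12, 6.52 and 4.24 CPM in control to 1.57, 1.35 and 1.13 CPM, that is by -1.15 ± 0.18 on the log2 scale (SE, limma, BH-adjusted p = 0.000368). GOT1 went from 97.8, 96.4 and 85.3 CPM to 40.7, 38.6 and 36.0 CPM (-0.89 ± 0.14, adjusted p = 0.000362). With siRNA B 0 of the 5 passed by limma, edgeR or DESeq2, beside 34.0% of all genes called by limma. Of these, 1, BCAT2 at -0.38, had an unadjusted p under 0.05 by each tool and passed on library totals alone (-0.59, adjusted p = 0.0131). GOT1 was at 109, 64.5 and 89.2 CPM there.

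In the methionine cycle and transsulfuration, 6 of 11 listed genes were tested. With siRNA A 1 rose and 2 fell, beside 51.4% of all genes called, and library totals alone gave 1 higher and 4 lower. MTR, the methionine synthase that remethylates homocysteine, fell (-0.76 ± 0.14, SE, limma, BH-adjusted p = 0.000939), as did the AHCY-like protein AHCYL1 (-0.85, adjusted p = 0.000103). MTRR, the reductase that reactivates MTR, rose from 33.2, 58.1 and 47.6 CPM to 63.8, 72.1 and 74.2 CPM (0.98 ± 0.21, adjusted p = 0.00233). With siRNA B AHCY, which hydrolyses the S-adenosylhomocysteine left by methyl transfer, fell by 0.51 (adjusted p = 0.0144), and AHCYL2 fell by 0.72 (SE 0.19, adjusted p = 0.0114). With siRNA A AHCYL2 was at -0.33 (adjusted p = 0.157). It passed in the fit with the replicate block (-0.33, adjusted p = 0.0343) and on library totals alone (-0.68, adjusted p = 0.00749). Its call with siRNA B was lost without control library 2 (-0.58, adjusted p = 0.0526). MAT1A, the SAM synthetase of the liver, was not tested at 0.868 to 1.5 CPM in control, 0.238 to 0.294 CPM with siRNA A and 0.0612 to 0.172 CPM with siRNA B. It stayed below 1 CPM in all but 2 libraries, and in a fit with no filter it passed as lower with both (-0.61 and -0.82, limma, BH-adjusted p = 0.000573 and 0.000219).

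Among other polyamine enzymes and regulators, 12 of 15 listed were tested, of which 3 rose and 3 fell with siRNA A and 2 rose and 2 fell with siRNA B, shares close to the 51.4% and 34.0% of all genes. SMS, the spermine synthase that uses the second aminopropyl group, rose with both siRNAs. Its libraries held 77.5, 65.4 and 77.8 CPM in control, 96.2, 100.4 and 93.8 CPM with siRNA A and 105, 109.9 and 104 CPM with siRNA B, with no overlap against control. The log2 fold changes were 0.76 ± 0.11 and 0.74 ± 0.11 (SE, limma, BH-adjusted p = 0.000242 and 0.000554), and 0.39 and 0.53 on library totals alone, both called. SAT1, which acetylates spermidine and spermine for export or breakdown, rose by 0.78 with siRNA A (SE 0.16, adjusted p = 0.00172). With siRNA B SAT1 rose by 0.47 (adjusted p = 0.0407), a call lost on library totals alone (0.26, adjusted p = 0.175), as well as without control library 1 or 2 or any one siRNA B library (adjusted p from 0.0609 to 0.177). OAZ1 rose with siRNA A from 481, 430 and 389 CPM to 654, 618 and 531 CPM (0.84 ± 0.14, adjusted p = 0.000566), while OAZ2 fell (-0.34, adjusted p = 0.026) and AZIN2, an antizyme inhibitor at low level, fell (-0.63, adjusted p = 0.0106). SMOX, which oxidises spermine, fell with siRNA A (-0.61, adjusted p = 0.00573). The calls lower with siRNA B were the polyamine transporters ATP13A2 (-0.54, adjusted p = 0.00811) and SLC18B1 (-0.43, adjusted p = 0.0104).

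Spermidine is the donor for hypusine, a modified lysine found in eIF5A, and all 4 genes of this step were tested. With siRNA A 2 of the 4 passed, both higher, a share close to the 51.4% of all genes tested. With siRNA B 1 of the 4 passed, as lower, beside 34.0% of all genes. Those called with siRNA A were EIF5A and EIF5A2. EIF5A went from 592, 531 and 484 CPM to 891, 935 and 728 CPM (1.03 ± 0.15, SE, limma, BH-adjusted p = 0.000161). EIF5A2 went from 19.5, 19.2 and 22.6 CPM to 35.5, 32.4 and 40.9 CPM (1.15 ± 0.14, adjusted p = 5.48e-05). Reads of EIF5A may also fit near-identical copies, and how the counting treated them is not given in the sources used here. With siRNA B DHPS, which transfers the spermidine moiety, fell by 0.30 (SE 0.10, adjusted p = 0.0325), a call lost without any one control library or without siRNA B library 1 or 2 (adjusted p from 0.0561 to 0.0865) and when control and siRNA B were fitted alone (0.0511).

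PRMT5, the arginine methyltransferase that methylthioadenosine inhibits, rose with both siRNAs. Its libraries held 263, 295 and 288 CPM in control, 372, 428 and 387 CPM with siRNA A and 313, 326 and 297 CPM with siRNA B, all above control. The log2 fold change was 0.85 ± 0.11 with siRNA A (SE, limma, BH-adjusted p = 8.08e-05). With siRNA B it was 0.36 ± 0.11 (adjusted p = 0.0246), a call lost on library totals alone (0.14, adjusted p = 0.306), as well as without control library 1 or 2 or siRNA B library 1 or 2 (adjusted p from 0.0513 to 0.0863). Of the other 4 genes of its complex RIOK1 rose with siRNA A after TMM scaling (0.40, adjusted p = 0.0124) and was at 0.04 on library totals alone. Among 4 genes that act on splicing and stability of MAT2A mRNA, NUDT21 rose with siRNA A (0.70 ± 0.14, adjusted p = 0.00129, or 0.33 and 0.0537 on library totals alone), and METTL16, which methylates that mRNA, missed the threshold at 0.27 with siRNA A (limma, adjusted p = 0.0603) and stood at -0.10 in the siRNA B comparison (adjusted p = 0.515), or -0.10 and -0.31 on library totals alone. With siRNA A DESeq2 called METTL16 (0.30, adjusted p = 0.0312) and the splicing regulator YTHDC1 (0.39, adjusted p = 0.0291), as did limma with the replicate block (adjusted p = 0.0468 and 0.012). That made 3 of the 4 called there, against 1 by edgeR and by limma without the block. Limma called 51.4% of all genes tested with siRNA A, and 8093 of 13893 with the block. The share of all genes called by DESeq2 is not given here.

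Of 5 carriers that bring methionine into cells, 3 passed with siRNA A and 2 with siRNA B, beside 51.4% and 34.0% of all genes tested. SLC38A2 rose with both siRNAs and had the largest rise of the lists with siRNA B. It went from 499, 626 and 535 CPM in control to 742, 1125 and 882 CPM with siRNA A and to 1057, 1262 and 818 CPM with siRNA B, with log2 fold changes of 1.08 ± 0.19 and 1.11 ± 0.19 (SE, limma, BH-adjusted p = 0.000685 and 0.00108). SLC43A2 fell with siRNA A from 13.2, 13.6 and 13.6 CPM to 3.95, 4.18 and 4.46 CPM (-1.16 ± 0.11, adjusted p = 1.31e-05). SLC3A2, the shared heavy chain of several amino acid carriers, rose with siRNA A after TMM scaling (0.71, adjusted p = 0.00491, or 0.34 and 0.128 on library totals alone), and SLC7A8 fell with siRNA B (-0.53, adjusted p = 0.0201). The markers named above moved too. Of the 6 epithelial markers KRT8 rose with both siRNAs (1.06 and 0.59), KRT18 and KRT19 rose with siRNA A (1.01 and 1.09) and EPCAM fell with it (-0.55). Of 2 tested markers of other cell types COL1A1 fell with both siRNAs (-0.46 and -0.79). CD68 lay so close to the filter of 1 CPM that it may have passed through its higher libraries alone. Its value of 0.43 with siRNA A (limma on the TMM scale, BH-adjusted p = 0.0295) therefore carries no weight. CD68 was not called as higher by DESeq2 (adjusted p = 0.0571) or on library totals alone.

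**Figure D4:**
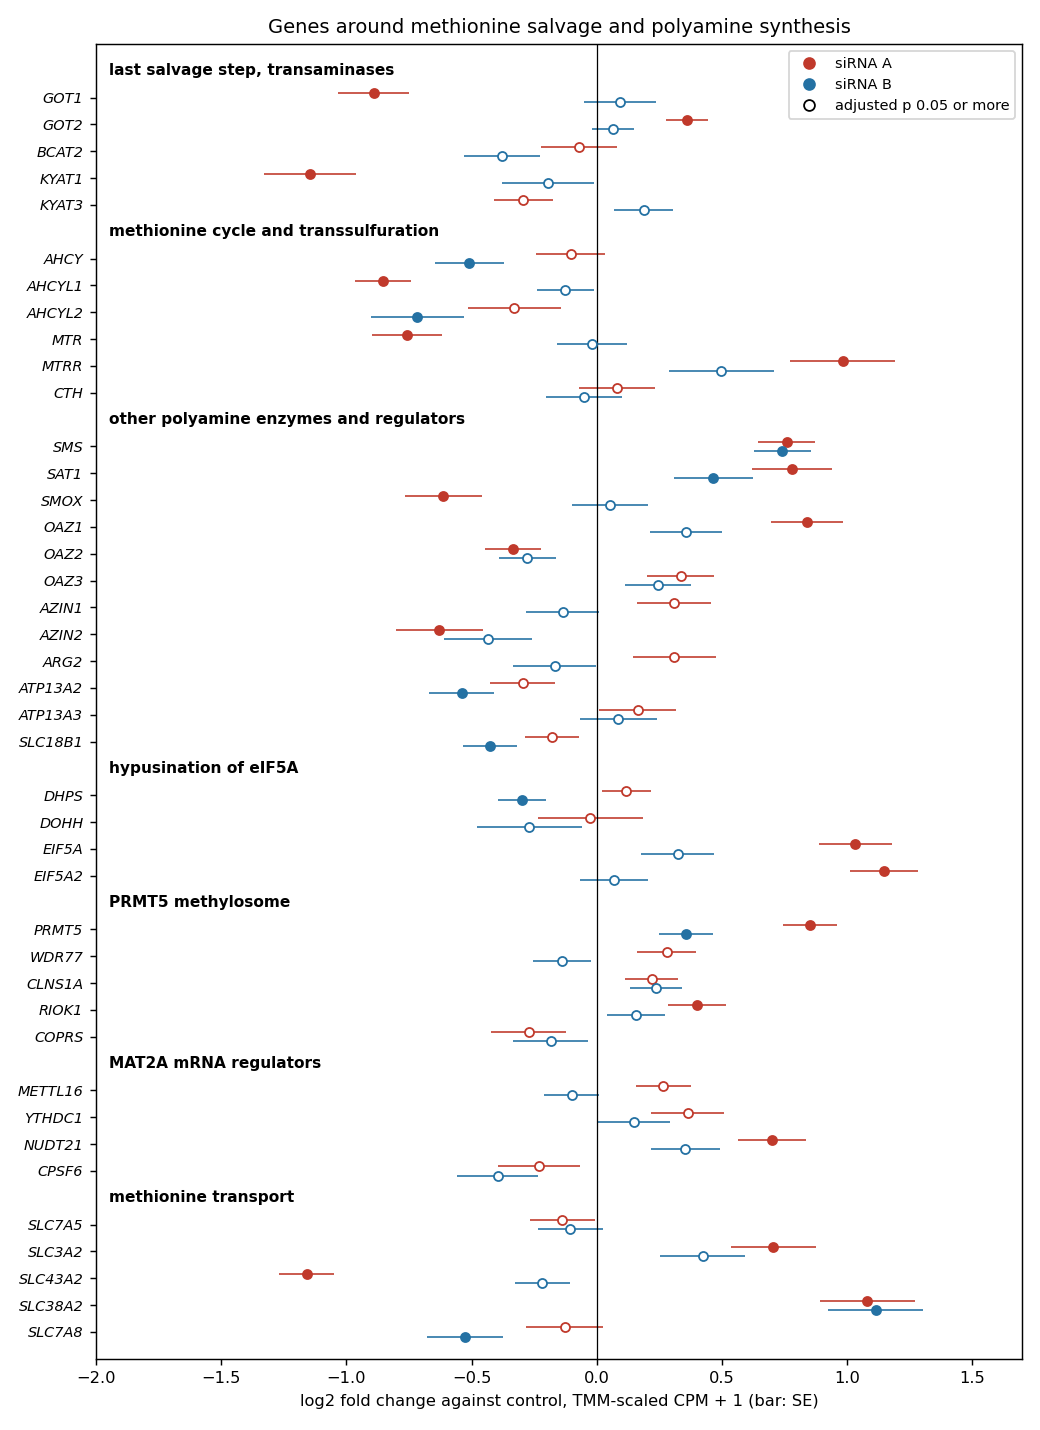
Log2 fold change against control (horizontal axis, TMM-scaled CPM + 1, bars are SE) of the 41 tested genes of the further pathway lists with siRNA A (red) and siRNA B (blue); open points had an adjusted p of 0.05 or more. SMS, SAT1, PRMT5 and SLC38A2 have filled points to the right with both siRNAs, and KYAT1 at -1.15 and SLC43A2 at -1.16 are farthest to the left with siRNA A.

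The 5 tested genes whose log2 level over the 9 libraries was most like that of ADI1 were GDE1 and TACC2 (Pearson r = 0.995 for both), RCAN1 (0.993), CCM2 (0.990) and ZNF704 (0.988). They were picked for that likeness, the 9 points fall into 3 groups and share their libraries, and no test is given. CCM2 went from 33.8, 34.8 and 35.0 CPM in control to 7.32, 8.22 and 7.45 CPM with siRNA A and 8.43, 8.14 and 8.76 CPM with siRNA B. ZNF704 went from 26.6, 32.4 and 30.9 CPM to 5.99, 5.52 and 6.47 CPM and to 8.24, 7.59 and 6.53 CPM. The log2 fold changes of the 5 genes lay between -1.80 and -1.04 with siRNA A and between -1.71 and -1.02 with siRNA B, smaller in size than those of ADI1.

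Near ADI1 the long non-coding RNA ENSG00000235078 runs on the opposite strand from 3523046 to 3526968 of chromosome 2 and overlaps the 5′ end of ADI1, so that without strand their shared reads cannot be told apart. It was low throughout, at 1.32, 1.45 and 1.40 CPM in control, 0.380, 0.193 and 0.343 CPM with siRNA A and 0.417, 0.184 and 0.258 CPM with siRNA B. On one side TRAPPC12, 12.3 kilobases away, fell with siRNA A from 24.3, 25.0 and 23.7 CPM to 8.84, 6.23 and 10.0 CPM (-1.11 ± 0.16, SE, limma, BH-adjusted p = 0.000163). With siRNA B TRAPPC12 was at 18.8, 13.3 and 19.6 CPM and missed the threshold (-0.29, adjusted p = 0.18), which it passed on library totals alone (-0.49, adjusted p = 0.0428). On the other side the long non-coding RNA ENSG00000242282, 56.1 kilobases away, went from 2.72, 2.17 and 2.36 CPM to 0.475, 1.03 and 0.931 CPM with siRNA A and to 1.16, 0.918 and 1.07 CPM with siRNA B, and fell in both comparisons (-0.71 and -0.59, adjusted p = 0.00308 and 0.0139). These flanking genes, the nearest tested one on each side, were lower than control in every library of both siRNAs, with TRAPPC12 called with siRNA A alone on the TMM scale. Genes farther out were not examined.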

How the data were processed

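The values deposited by the authors are CPM, that is, gene reads relative to the total of their library, without scaling between libraries. The submitters' processing notes name TopHat2, HTSeq and the builds GRCh37 and hg19; the annotation and the use of strand are not given in the sources used here. All 100% of values came out as whole reads (tolerance 0.01 read), and the recovered totals ran from 15566530 to 23277549 reads. Identifiers were matched without version to GENCODE on GRCh37 (14871 of 15354). The main test was limma 3.58.1 (R 4.3.3) on log2(CPM + 1) after TMM scaling (edgeR 4.0.16), with a trend on the mean, on genes at 1 CPM or more in at least 3 of 9 libraries (13893 genes, 90.5%), all libraries in 1 fit, Benjamini-Hochberg adjustment over all genes tested and a threshold of 0.05. On this scale the changes of low genes come out too small. Alternatives were library totals alone, median-of-ratios scaling, a pseudocount of 0.1, no filter, edgeR's quasi-likelihood test and DESeq2 1.42.0 on recovered reads, the replicate number as a block, fits on the compared groups only, and leaving out each library.

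Members and lists were chosen with earlier results of these data known, and 1 listed gene is not reported here and is left out of the counts. All 10 members are named. From each other list the text names genes called with both siRNAs and the gene with the largest called change with each; GOT1, GOT2, BCAT2, KYAT3, MTR, AHCYL1, AHCY, OAZ2, OAZ3, AZIN2, SMOX, ATP13A2, SLC18B1, EIF5A, RIOK1, WDR77, METTL16, YTHDC1, MAT1A, SLC3A2, SLC7A8 and the remaining markers were added after their values were seen. The 5 genes most correlated with ADI1 and its nearest tested neighbours were named by rule. Deviations from the group means in same-numbered libraries of siRNA A and control correlated over genes at r = 0.65, 0.41 and 0.13. The last value is weak, and with 3 libraries a group these values do not establish that the number pairs libraries. The block was fitted on all 9 libraries, so it is not a paired fit of siRNA A and control alone. The number carries no stated meaning on the labels. A count of 3 reads, the detection floor, was 0.129 to 0.193 CPM. No pair of libraries within a group agreed within sampling noise (chi-square per degree of freedom 12.2 or more). Scripts were tested on simulated data. Promoters came from RefSeq on GRCh38.p14; Python 3.11.15, numpy 2.4.6, pandas 2.3.3 and matplotlib 3.10.9 were used.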

Additional observations from a re-analysis of the deposited data

Results flagged for a closer look

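3 of the 10 genes differed between the siRNAs by a direct test of siRNA A against siRNA B, beside 37.1% of all genes tested. AMD1 was higher by 1.04 on the log2 scale in the libraries labelled siRNA A, SRM by 0.65 and ENOPH1 by 0.39. AMD1 and SRM passed this test under every alternative run, and ENOPH1 did not pass with library totals alone (0.24, adjusted p = 0.114). The values of 0.39 and 0.24 for ENOPH1 come from the same reads and differ by the scaling alone. The mean TMM factor was 0.886 with siRNA A and 0.988 with siRNA B. Which scaling suits these libraries better was not tested.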

How the results depend on the processing

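The 9 members other than ADI1 gave 8 calls with siRNA A, beside 51.4% of all genes, and 4 with library totals alone, beside 56.1%. They gave from 6 to 8 when 1 library was left out. On leaving out 1 library their calls with siRNA B ranged from 2 to 3, and those of all 10 members between the siRNAs from 3 to 4. Library totals alone turned the sign of MTAP (-0.090 with siRNA A, -0.083 with siRNA B, -0.0072 between the siRNAs), MAT2B (-0.18, -0.052 and -0.12), ENOPH1 (-0.14) and SRM (-0.077) with siRNA B, ADI1 (-0.068) and ODC1 (-0.073) between the siRNAs, DHPS with siRNA A (-0.24) and EIF5A2 with siRNA B (-0.13); these shifts follow from the construction of the scaling, which moves all genes of a library together. Leaving out 1 library turned EIF5A2 with siRNA B (-0.015 without control replicate 2 to 0.19, and -0.013 without siRNA B replicate 1), ADI1 between the siRNAs (-0.050 without siRNA B replicate 3 to 0.16) and MAT2B between the siRNAs (-0.083 without siRNA B replicate 3 to 0.098, and -0.054 without siRNA A replicate 2), none of them called. The ADI1 ratio between the siRNAs ranged from -0.15 to 0.040, the latter without siRNA B replicate 1, and the ODC1 to OAZ1 ratio with siRNA B ranged from -0.12 to 0.025, being 0.013 without siRNA B replicate 3 and 0.025 without control replicate 3; the cause was not tested. The replicate block gave 8093, 5791 and 6229 genes called against 7145, 4719 and 5155 without it, and changed no member's call with siRNA A. Correlations of same-numbered libraries were 0.17, 0.44 and -0.39 between siRNA B and control, and 0.20, 0.44 and 0.02 between the siRNAs. In these comparisons the block called MAT2A with siRNA B (-0.30, adjusted p = 0.0307) and between the siRNAs (-0.28, adjusted p = 0.0344). It gave 18 calls with siRNA B among the 41 further pathway genes against 10 without it. With siRNA A it added 7 calls among those genes and lost none. With 3 libraries a group the permutation tests could not pass 0.05.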
